A study of Mus musculus and Rattus norvegicus with 30 samples.

Results

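The genes described here encode the microtubule building blocks and the motors that run on them: the alpha, beta and gamma tubulins, the kinesins, and the subunits of cytoplasmic dynein and its partner complex dynactin. They were taken by symbol, as every gene named Tuba, Tubb or Tubg with a number, Kif with a number, or beginning with Dync, Dynl or Dctn. The rule found 79 genes among 54315 features in the mouse count table and 75 among 39281 in the rat table. The mouse genes comprised 7 alpha tubulins, 8 beta tubulins, 2 gamma tubulins, 38 kinesins, 7 dynein chains, 9 dynein light chains and 6 dynactin subunits. The 2 remaining symbols that the rule took, Kif1bp (a kinesin-binding protein) and Kif16bos (an opposite-strand transcript), are not motors.

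The study sequenced RNA from whole dorsal root ganglia (DRG), where the cell bodies of sensory neurons lie next to the spinal cord, after a nerve lesion or a sham operation. BALB/c and B10.D2 mice of both sexes, obtained as young animals and operated on as adults, underwent sham surgery or spared nerve injury (SNI), a lesion that cuts 2 of the sciatic nerve's 3 branches, and their L3 and L4 ganglia were taken 28 days later with 1 animal per library. Male Wistar rats underwent sham surgery or transection of a spinal nerve (SNT), and their L5 ganglia were taken 21 days later with 3 animals pooled per library. Counts were analysed for 6 sham and 4 SNI libraries of BALB/c, 5 sham and 5 SNI libraries of B10.D2, and 4 sham and 4 SNT libraries of the rat. Assigned reads per library numbered 29989963 to 41881331 in the mouse and 11954612 to 17887909 in the rat. No animal carried a transgene, and mouse libraries are named below by the animal number in the labels. After SNI the ganglia held lesioned and spared neurons together, whereas SNT cut the whole L5 nerve.

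Microtubules are polar tubes of alpha and beta tubulin dimers, and gamma tubulin starts their growth. In a sensory neuron they fill an axon that can be many times longer than the cell body is wide: most kinesins carry cargo outwards towards the nerve ending, and cytoplasmic dynein, held to its cargo by dynactin, carries signals and worn components back. Another set of kinesins moves chromosomes and builds the spindle in dividing cells. Cutting an axon sends signals back along these tracks to the cell body and is followed by regrowth of the axon, which needs new tubulin.

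Libraries that stand apart are given first because the rat results rest on them. On the first principal component of the rat data, which held 68.5% of the variance, the library labelled sham 4 (score -9.24) and the library labelled SNT 1 (1.12) lay between the other sham libraries and the other SNT libraries. The labels do not decide whether either was exchanged or SNT 1 incompletely lesioned, and this was not tested, so rat values are those of the libraries as labelled. Fits without both libraries are given beside some of them. That pair was chosen after the data were seen, for lying between the groups, so these fits cannot serve as a test. The summed level of 10 genes that mark injured sensory neurons was 976 CPM (counts scaled to library size) in sham 4 and 367 to 408 in the other 3 sham libraries, with 1215 in SNT 1 and 1347 to 1736 in the other SNT libraries. Of those 10 genes, Atf3 and Gap43 were listed at 0 in every rat library. In the mouse all 10 were higher after SNI in BALB/c and 9 of 10 were in B10.D2. All 12 sensory neuron markers were counted there. In the rat 5 of the 11 neuron markers found in the table (Rbfox3, Uchl1, Nefl, Nefm and Nefh) were listed at 0 in all 8 libraries, so a 0 in the rat table says nothing of whether a gene was expressed.

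In mouse sham ganglia the neuronal tubulins were the highest of the set. Levels are compared between genes as CPM per kilobase of annotated exon. Tuba1a, the main alpha tubulin of developing and adult neurons, stood at 1383 ± 40.4 CPM per kb (SD, n = 6) in BALB/c sham and 1514 ± 92.2 (n = 5) in B10.D2 sham, and took 84.9% ± 0.685 and 86.3% ± 0.681 of the alpha tubulin total. Tubb3, the neuron-specific class III beta tubulin, led the beta tubulins with 1176 ± 52.6 and 1201 ± 79.6 CPM per kb, which was 49.7% ± 1.17 and 48.5% ± 0.951 of the beta total. Behind it came Tubb4b (387 ± 17.3 in BALB/c sham) and Tubb2a (365 ± 12.95), whose levels were close enough for their order not to be read, and Tubb5 (301 ± 10.2). Tubb6, which turned out to change most among the tubulins, made up only 0.297% ± 0.0281 of beta tubulin in BALB/c sham. Near-identical copies limit these shares. Of the 100-base stretches in Tuba1a transcripts 65.8% also occur in another gene, with 65.2% in Tuba1b, 46.0% in Tuba1c and 36.9% in Tubb2a. Reads may therefore have been moved between them or lost, whereas Tubb3, Tubb5 and Tubb6 shared 0.0%. The shares hold for the mouse only. In rat sham, without exon lengths, Tuba1a held 1587 to 1984 CPM and Tuba1b 1624 to 2317.

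Among the motors Kif5a, the neuronal heavy chain of conventional kinesin, stood highest at 229.2 ± 10.8 CPM per kb in BALB/c sham and 237.2 ± 18.04 in B10.D2 sham. Kif21a (173 ± 13.9 in BALB/c sham), Kif1a, which carries synaptic vesicle precursors (152 ± 16.3), and Kif5c (147 ± 3.84) followed; the SD range of Kif1a overlapped those of the other two, which did not overlap each other. Spindle kinesins were more than 2 orders of magnitude lower, with Kif22 at 0.657 ± 0.0987 and Kif20a at 0.743 ± 0.0934 CPM per kb. Dync1h1, the heavy chain that holds the dynein motor domain, led the dynein chains with 208 ± 10.3 in BALB/c sham, above every kinesin but Kif5a, and Dynlt3 led the light chains with 148 ± 10.2. Dctn3, a small subunit of the dynactin shoulder, was the highest dynactin gene at 115 ± 8.53 CPM per kb, and Tubg1 was the higher of the gamma tubulins at 13.2 ± 0.659. Summed over a class, beta tubulin held 2367 ± 76.4 CPM per kb in BALB/c sham, alpha tubulin 1630 ± 47.7, the kinesins 1136 ± 44.5, the dynein chains 467 ± 13.2, the dynein light chains 328 ± 27.6, dynactin 297 ± 11.02 and gamma tubulin 20.7 ± 1.22.

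**Figure D1:**
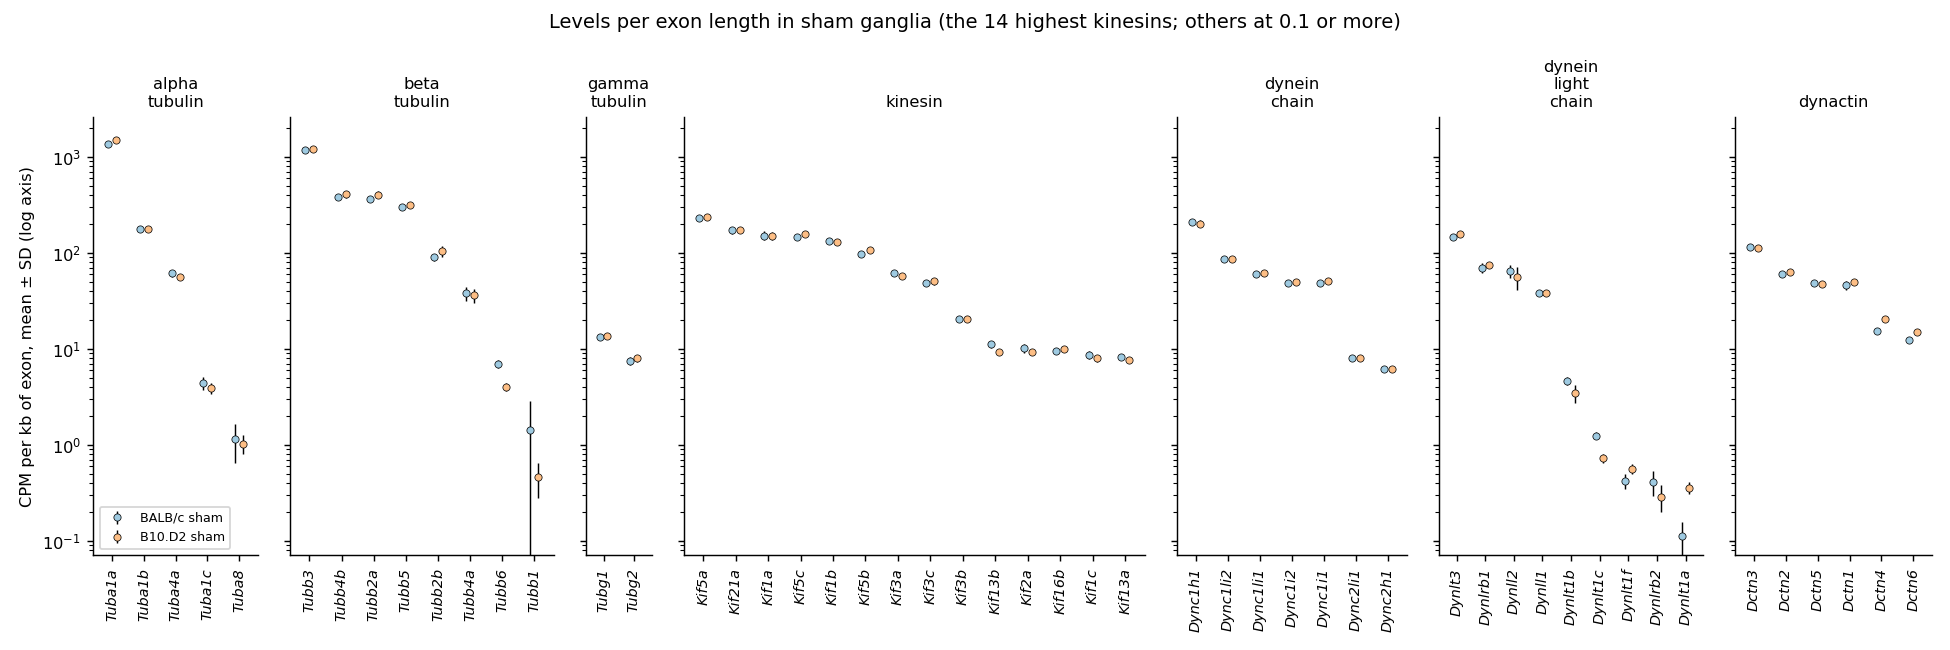
Mean level ± SD of genes in sham ganglia of BALB/c (n = 6, blue) and B10.D2 (n = 5, orange) mice, by class. Levels are in CPM per kb of annotated exon on a log axis. Genes under 0.1 in BALB/c sham are left out, and only the highest kinesins are shown, which leaves out the mitotic ones. Bars that reach the lower edge extend to 0.1 or less. Tuba1a and Tubb3 lie highest in both strains, and the strain means of Dynlt1a, Dynlt1c and Tubb6 are set apart.

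The first comparison asked which of these genes changed after SNI in BALB/c, the strain that develops more mechanical hypersensitivity. Of the 72 members tested, 16 were called at an adjusted p under 0.05 (edgeR quasi-likelihood test), 9 higher and 7 lower; across all 24685 features tested, 9.69% were called. Tubulins made up 6 of the 9 rises (Tubb6, Tuba1c, Tubb2b, Tubb2a, Tuba1a and Tubb5) and spindle kinesins the other 3 (Kif22, Kif2c and Kif20a). The falls were spread over 1 tubulin (Tuba4a), 3 kinesins that are not mitotic (Kif26b, Kif3a and Kif5c), 2 dynein chains (Dync1i1 and Dync2h1) and 1 dynactin subunit (Dctn3). The median log2 fold change was -0.04 over the members and 0.003 over all features.

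Tubb6, a beta tubulin found in many tissues at low levels, gave the clearest change of all. In the BALB/c sham libraries it ranged from 15.5 to 19.7 CPM with a median of 16.8, and the 4 SNI libraries held 35.4, 37.9, 35.3 and 35.8 CPM. The groups did not overlap, and the log2 fold change was 1.08 (SE 0.12; adjusted p = 3.34e-06, edgeR). In B10.D2 the 5 sham libraries held 9.85, 11.5, 9.02, 9.45 and 9.39 CPM and the 5 SNI libraries 31.3, 15.8, 26.9, 25.6 and 24.8 CPM. These groups did not overlap either, with a log2 fold change of 1.36 (SE 0.12; adjusted p = 2.79e-06, edgeR), although SNI 76 lay well below its group. That library also had the lowest summed level of the injured neuron markers in its group, 350 CPM against 577 to 676 in the other 4.

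Kif22, a chromokinesin that pushes chromosome arms during cell division, rose from a low level. Its BALB/c sham libraries ranged from 2.58 to 3.75 CPM with a median of 3.26, and the SNI libraries held 9.50, 6.82, 6.33 and 6.81 CPM. There was no overlap, and the log2 fold change was 1.18 (SE 0.15; adjusted p = 2.27e-05, edgeR), or 1.07 at the least when any 1 BALB/c library was left out. In B10.D2 the sham libraries held 3.57, 3.11, 2.42, 1.92 and 2.80 CPM and the SNI libraries 6.14, 3.93, 4.80, 5.81 and 4.56 CPM, again without overlap (log2 fold change 0.92, SE 0.16; adjusted p = 0.00098). These levels rest on 72 to 293 reads per library.

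Tuba1c, a minor alpha tubulin isotype, was the other tubulin called higher in both strains. Its BALB/c sham libraries ranged from 7.89 to 11.3 CPM with a median of 10.7, and the SNI libraries held 22.2, 17.0, 16.7 and 17.7 CPM. The groups were separate, with a log2 fold change of 0.87 (SE 0.11; adjusted p = 3.1e-05, edgeR). In B10.D2 the values were 8.68, 8.77, 8.29, 8.06 and 11.03 CPM in sham and 14.5, 10.5, 12.5, 13.99 and 13.6 CPM after SNI. SNI 76 and sham 88 overlapped there, and the log2 fold change was 0.56 (SE 0.12; adjusted p = 0.00569). Reads of Tuba1c can be taken for Tuba1a or Tuba1b, so its level is uncertain.

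Tuba4a, the alpha tubulin whose gene does not encode the C-terminal tyrosine, fell in both strains. BALB/c sham libraries ranged from 200 to 247 CPM with a median of 235.5, and the SNI libraries held 205, 152, 165 and 166 CPM; SNI 49 lay above the lowest sham library. The log2 fold change was -0.41 (SE 0.063; adjusted p = 0.000186, edgeR). In B10.D2 sham held 223, 212, 200, 208 and 198 CPM and SNI 161, 166, 166, 175 and 159 CPM, without overlap (log2 fold change -0.31, SE 0.062; adjusted p = 0.00442). Stk16 lies on the other strand across 37.3% of the Tuba4a exon bases, and the strand setting of the counting is not given in the sources used here, so part of the count could belong to that gene.

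Dync1i1, the dynein intermediate chain found mainly in neurons, which links the motor to dynactin, was the only dynein gene called in both strains. Its BALB/c sham libraries ranged from 163 to 183 CPM with a median of 172, and the SNI libraries held 147, 129, 134 and 141 CPM. The groups did not overlap, with a log2 fold change of -0.33 (SE 0.049; adjusted p = 0.000139, edgeR). In B10.D2 sham held 191, 176, 177, 173 and 190 CPM and SNI 137, 155, 155, 169 and 146 CPM, also without overlap (log2 fold change -0.23, SE 0.048; adjusted p = 0.00531). Dync1i2, the intermediate chain used by all cell types, had log2 fold changes of 0.01 (SE 0.041) and -0.03 (SE 0.041) in the same comparisons and did not pass the test. In whole ganglia, fewer cells of a type and less RNA per cell cannot be told apart, and this holds for every fall given here.

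**Figure D2:**
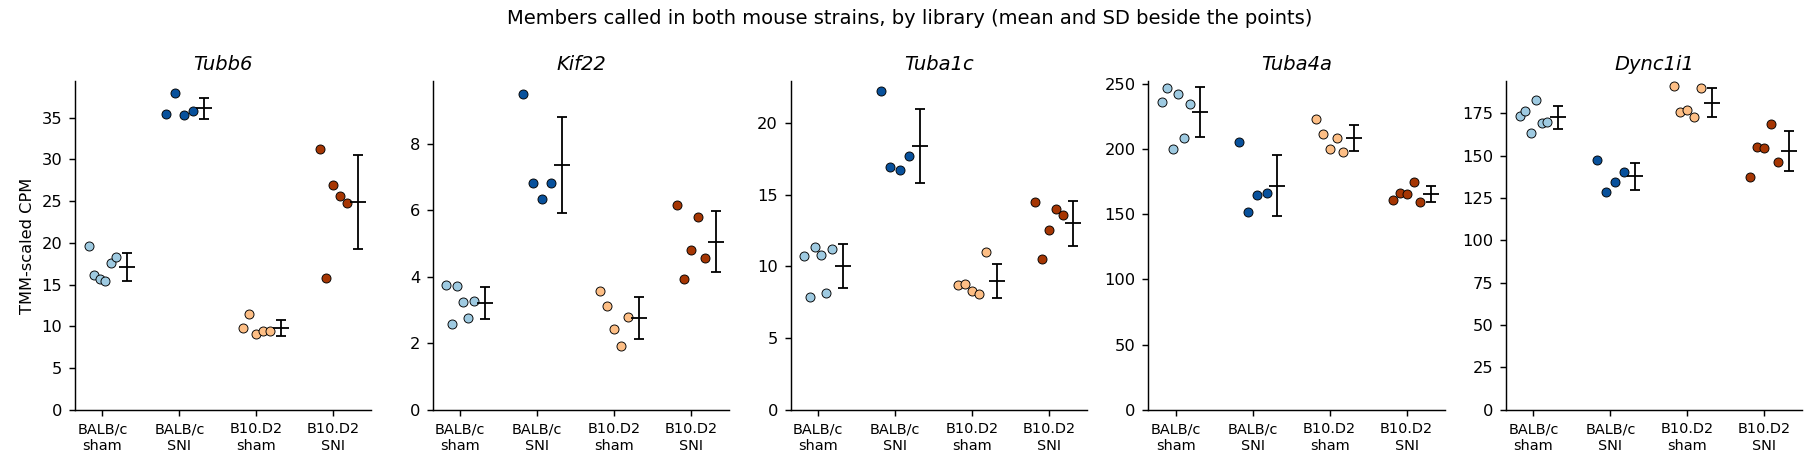
TMM-scaled CPM of Tubb6, Kif22, Tuba1c, Tuba4a and Dync1i1 in each mouse library (points), with the group mean and SD beside them, for sham (n = 6) and SNI (n = 4) in BALB/c and sham (n = 5) and SNI (n = 5) in B10.D2. The SNI libraries lie above sham for the first 3 genes and below it for the last 2; Tuba4a in BALB/c and Tuba1c in B10.D2 have overlapping groups.

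The stretches upstream of Kif22, Tuba1c and Dync1i1 are shown because these 3 members were called in the same direction in both strains and, as given below, in the rat. They come from RefSeq (GRCm38.p6), are written 5′ to 3′ on the gene's strand and end at the RefSeq start site, or earlier where an annotated exon begins. Capitals mark CCAAT, the NF-Y motif, on either strand. Kif22 lies at chr7:127027729-127042471 on the minus strand, and its stretch at chr7:127042472-127042670; Tuba1c lies at chr15:99029891-99038110 on the plus strand, and its stretch at chr15:99029641-99029890; Dync1i1 lies at chr6:5725639-6028039 on the plus strand, and its stretch at chr6:5725389-5725638.
Kif22: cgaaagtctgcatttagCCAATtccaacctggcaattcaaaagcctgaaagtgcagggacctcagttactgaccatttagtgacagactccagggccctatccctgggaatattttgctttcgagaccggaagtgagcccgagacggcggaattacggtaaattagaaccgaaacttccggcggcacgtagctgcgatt
Tuba1c: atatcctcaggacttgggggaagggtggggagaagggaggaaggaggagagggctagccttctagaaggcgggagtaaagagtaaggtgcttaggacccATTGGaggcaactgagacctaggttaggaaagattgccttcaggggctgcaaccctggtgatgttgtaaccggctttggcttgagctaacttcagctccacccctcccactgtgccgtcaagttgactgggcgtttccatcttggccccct
Dync1i1: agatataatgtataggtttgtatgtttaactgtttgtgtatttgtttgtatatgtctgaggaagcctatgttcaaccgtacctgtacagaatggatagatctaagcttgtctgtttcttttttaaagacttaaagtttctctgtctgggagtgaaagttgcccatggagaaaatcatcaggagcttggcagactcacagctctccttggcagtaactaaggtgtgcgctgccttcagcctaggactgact
In the full 250 bases upstream, CCAAT was found in 33.8% of 32851 RefSeq promoters and in 42.6% of the 68 promoters of 61 members. Kif22 held it at 233 bases and again at the annotated exon, Tuba1c at 151 bases, and Dync1i1 not at all. TGANTCA, the AP-1 motif, was in 0 of the 68 member promoters and 6.75% of all, and TGACGTCA, the cyclic AMP response element, in 4 of 68 and 1.55%. A match here is only a run of letters, and no binding was measured.

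The other BALB/c tubulin calls were smaller but concerned abundant isotypes. Tubb2b and Tubb2a, both beta tubulins of neurons, rose by 0.46 (SE 0.081; adjusted p = 0.000682) and 0.30 (SE 0.051; adjusted p = 0.000475) on the log2 scale. Tubb2a held 559 to 607 CPM in sham and 703 to 750 CPM after SNI, and Tubb2b 184 to 234.1 and 281 to 292, so neither overlapped. Tuba1a rose by 0.20 (SE 0.045; adjusted p = 0.00497) on a level of 2494 ± 72.8 CPM (n = 6), which reached 2872 ± 105 (n = 4). Tubb3 had a log2 fold change of 0.10 (SE 0.044; adjusted p = 0.165) and Tubb4b one of -0.15 (SE 0.053; adjusted p = 0.086). Expressed as shares of the beta tubulin total, Tubb2a went from 15.4% ± 0.393 to 17.5% ± 0.489, Tubb4b from 16.4% ± 0.611 to 13.6% ± 0.201 and Tubb6 from 0.297% ± 0.0281 to 0.578% ± 0.0383, while Tubb3 stood at 49.7% ± 1.17 and 49.1% ± 0.837. The summed beta tubulin level was 2249 to 2478 CPM per kb in sham and 2454 to 2698 after SNI, which overlapped. Summed alpha tubulin was 1562 to 1687 and 1749 to 1921, which did not.

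Transport motors moved little in BALB/c. Kif3a, a subunit of heterotrimeric kinesin-2, which also serves cilia, fell by 0.23 (SE 0.05; adjusted p = 0.00455), from 223 ± 15.1 CPM (n = 6) to 190 ± 5.46 (n = 4). Kif5c fell by 0.14 (SE 0.038; adjusted p = 0.0213), and its family members Kif5a and Kif5b had values of -0.16 (adjusted p = 0.0932) and -0.19 (adjusted p = 0.0716) that did not pass. Kif26b, a kinesin without motor activity, fell by 0.29 (SE 0.082; adjusted p = 0.0279). Dync2h1, the heavy chain of the ciliary dynein, fell by 0.16 (SE 0.041; adjusted p = 0.0156), and Dctn3 fell by 0.18 (SE 0.055; adjusted p = 0.0447). Of the 24 kinesins tested that are not mitotic, 18 had negative log2 fold changes (median -0.12), and all 6 dynactin genes were negative or at 0.00, with a median of -0.05. The summed kinesin level was 1085 to 1196 CPM per kb in sham and 991 to 1101 after SNI.

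All 11 mitotic kinesins tested had positive log2 fold changes in BALB/c, with a median of 0.80 and a range of 0.05 to 1.18, but only Kif22, Kif20a and Kif2c passed. Kif20a, needed for the last step of cell division, held 2.81 to 3.78 CPM in sham and 6.94, 5.12, 5.88 and 4.88 CPM after SNI, without overlap (log2 fold change 0.82, SE 0.12; adjusted p = 0.000121). Cdc23 lies on the other strand across 29.3% of the Kif20a exon bases. As with Tuba4a, part of every Kif20a count given here could therefore belong to another gene. Kif2c, which depolymerises spindle microtubules, held 0.599 to 1.37 CPM in sham and 3.08, 1.15, 1.66 and 1.13 CPM after SNI, which overlapped (0.94, SE 0.28; adjusted p = 0.0388). The list of 14 proliferation markers moved with them: its median log2 fold change was 0.79, 2 genes (Ccnb1 and Cdc20) passed and none fell, and its summed level was 58.3 to 124 CPM in sham and 84.6 to 216 after SNI, with none of the 14 at 0 throughout. SNI 49 held the highest of these sums, 216 CPM against 84.6 to 122 in the other SNI libraries. Within the SNI group it was also highest for every mitotic kinesin except Kif20b and Kif23. Without SNI 49 the Kif2c value dropped to 0.52 and was not called. Kif11 was 14.3 CPM in SNI 49, 5.16 to 7.91 in the other SNI libraries and 4.88 to 8.59 in sham. For Kif18a these were 5.61, 2.41 to 3.86 and 2.66 to 4.29 CPM. Such small positive values therefore rest largely on SNI 49, whereas Kif22 and Kif20a lay above sham in every SNI library. Of 10 macrophage markers 4 were higher, with sums of 126 to 305 CPM in sham and 261 to 381 after SNI. Whether dividing or incoming cells have a part in the rise of these kinesins was not tested.

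Of the 16 BALB/c calls, 10 held when any 1 of the 10 BALB/c libraries was left out. Tubb5 (0.13, SE 0.04; adjusted p = 0.0416) kept its call only without sham 56 or 57 (0.12 to 0.15), Dctn3 only without sham 57 or 71 (-0.21 to -0.13) and Kif2c only without sham 50 or 55 or SNI 64 or 70 (0.52 to 1.11). Kif26b lost its call without sham 57 or 71 or SNI 49, 64 or 65 (-0.37 to -0.23), Kif5c without SNI 49, 65 or 70 (-0.16 to -0.13) and Dync2h1 without SNI 70 (-0.18 to -0.14).

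In B10.D2, the strain with less hypersensitivity, 5 of 72 members were called (4.58% of all features): Tubb6, Kif22 and Tuba1c were higher and Tuba4a and Dync1i1 lower. All 5 were also called in BALB/c in the same direction, and all 5 kept their call without any 1 of the 10 B10.D2 libraries. Over all features, 867 of the 1130 called in B10.D2 were also called in BALB/c, all of them in the same direction. The 11 members called in BALB/c alone all had the same sign in B10.D2 with smaller values, such as Tubb2b at 0.24 (SE 0.081; adjusted p = 0.11), Kif20a at 0.23 (SE 0.13; adjusted p = 0.401) and Kif3a at -0.15 (SE 0.049; adjusted p = 0.107). Of all 2392 features called in BALB/c, 2319 had the same sign in B10.D2. The 11 mitotic kinesins were again all positive, with a median of 0.19. Of the proliferation markers 0 of 14 passed, and their sums were 55.5 to 65.8 CPM in sham and 62.8 to 76.96 after SNI; of the macrophage markers 0 of 10 passed, with sums of 230 to 280 and 250 to 431 CPM. The strains share no library, although the model shares the sex term and the spread. Over the 72 members, 64 (88.9%) had the same sign in both strains, and over all 24685 features 70.4% did.

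**Figure D3:**
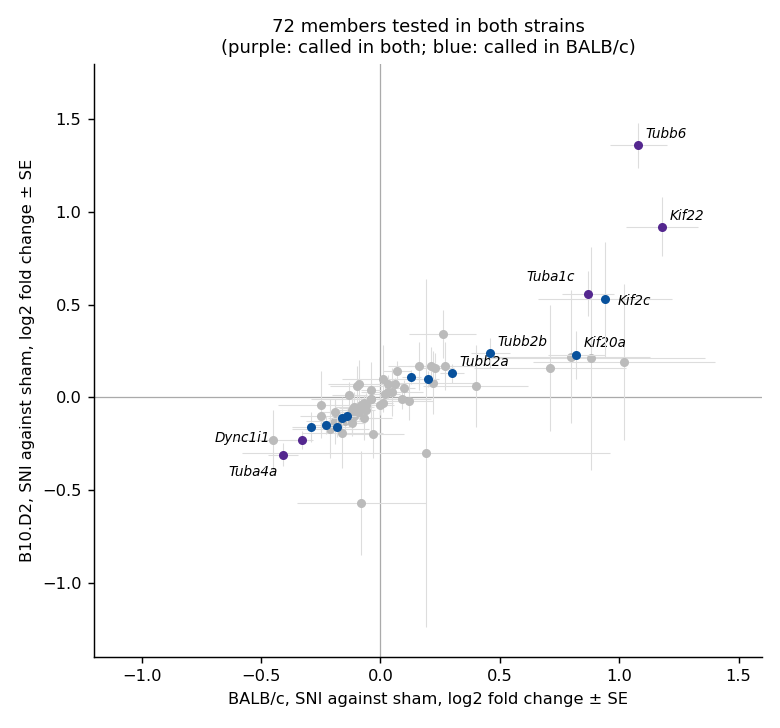
Log2 fold change after SNI in BALB/c (horizontal) against B10.D2 (vertical) for the 72 members tested, each with its SE; purple marks the 5 called in both strains and blue those called in BALB/c only. Tubb6, Kif22 and Tuba1c lie at the upper right, and Tuba4a and Dync1i1 at the lower left.

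The injury change itself was not shown to differ between strains for any member. The strain by injury term (edgeR) called 0 of 72 members and 6 of 24685 features (0.0243%), and DESeq2 also called 0 members. At an unadjusted p under 0.05 there were 2 members, against 4.35% of all features. These were Kif20a, with a term of -0.59 on the log2 scale, a smaller rise in B10.D2 (SE 0.18; adjusted p = 0.9, edgeR), and Tubb2a, with a term of -0.17 (SE 0.072; adjusted p = 1, edgeR). For Tubb6 the term was 0.28 (SE 0.17) and for Kif22 -0.26 (SE 0.22), and neither passed.

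Sham ganglia of the strains differed in 13 of 72 members, 7 higher and 6 lower in B10.D2, and 21.6% of all features were called in this comparison. Dynlt1a, a dynein light chain of the Tctex family, held 0.228 to 0.727 CPM in BALB/c and 1.23 to 1.76 in B10.D2 (log2 difference 1.65, SE 0.21; adjusted p = 3.58e-06, edgeR). Its neighbour Dynlt1c went the other way, with 4.17 to 5.22 CPM in BALB/c and 2.39 to 3.14 in B10.D2 (-0.77, SE 0.094; adjusted p = 2.08e-06). Of the 100-base stretches in Dynlt1a 54.7% also occur in another gene, and of those in Dynlt1c 80.7%, and both strains were aligned to one reference genome, so these light chain differences are uncertain and their cause was not tested. Tubb6, with 0.0% shared, was lower in B10.D2 by 0.81 (SE 0.12; adjusted p = 2.58e-05), at 9.84 ± 0.968 CPM (n = 5) against 17.1 ± 1.66 (n = 6). Kif27, a relative of the ciliary kinesin Kif7, was lower by 0.99 (SE 0.17; adjusted p = 0.000186), and Kif20a by 0.47 (SE 0.12; adjusted p = 0.00702). None of these 5 called differences overlapped between groups, and none lost its call when any 1 of the 11 sham libraries was left out. All 11 mitotic kinesins were lower or at 0.00 in B10.D2 sham (median -0.47, 1 called). The 14 proliferation markers had a median of -0.55 and 0 calls, with sums of 55.5 to 65.8 CPM in B10.D2. In BALB/c the sums were 124 CPM in sham 50 and 117 in sham 55, but 58.3 to 67.8 in the other sham libraries. Kif15 likewise held 4.47 and 3.62 CPM in sham 50 and 55, and 1.20 to 1.62 in the others. How far the strain medians rest on sham 50 and 55 was not tested. Of the T cell markers 5 of 7 were higher in B10.D2 (sums of 2.36 to 3.89 and 4.41 to 6.18 CPM), and of the macrophage markers 4 of 10 (126 to 305 and 230 to 280 CPM). The part of these markers in the strain differences was not tested.

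In the rat, 29 of the 75 members were listed at 0 in all 8 libraries and 43 passed the filter on low counts. The genes at 0 include Tubb2a, Tubb2b, Tubb3, Tubb5, Tubb6, Dynll1, Kif5b, Kif3a and Kif20a, so nothing can be said of them there, and class totals are not given. Of the 43 tested, 13 were called after SNT, 3 higher (Kif22, Tuba1c and Kif7) and 10 lower, and 27.4% of all 13690 features were called, so the share of members was close to the background. All 6 dynein chains tested had negative log2 fold changes, with a median of -0.38, and over the 13 dynein and dynactin genes 5 fell and none rose.

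**Figure D4:**
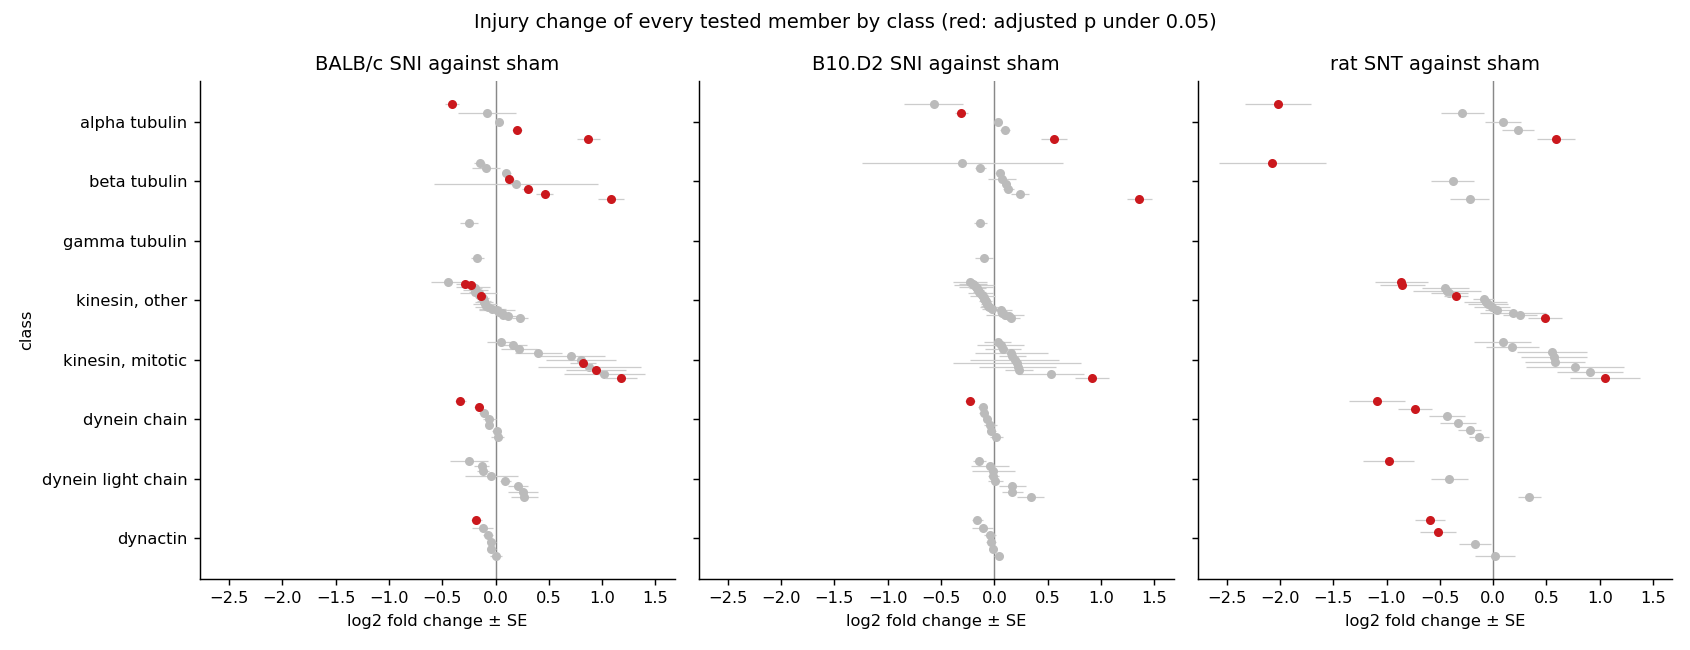
Log2 fold change ± SE of every tested member after injury, by class, in BALB/c, B10.D2 and rat; red marks an adjusted p under 0.05 (edgeR) and grey the rest. The mitotic kinesins lie to the right of 0 in all 3 comparisons, and the dynein chains lie mostly to the left, farthest in the rat.

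Dync1i1 fell in the rat as in both mouse strains. The 4 sham libraries held 428, 593, 504 and 374 CPM and the 4 SNT libraries 341, 157, 150 and 243 CPM, without overlap; the log2 fold change was -1.09 (SE 0.26; adjusted p = 0.0176, edgeR). Sham 4 and SNT 1 were the nearest to each other. Leaving out both gave -1.47, while leaving out sham 3 or SNT 2 alone lost the call at values within -1.37 to -0.93.

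The other retrograde transport genes called lower were Dync1i2, Dynlt3, Dctn5 and Dctn3. Dync1i2 held 765, 897, 852 and 712 CPM in sham and 639, 399, 429 and 475 CPM after SNT (-0.73, SE 0.16; adjusted p = 0.0142, edgeR), without overlap. Dynlt3, a light chain of the Tctex family, held 750, 552, 554 and 461 CPM in sham and 440, 207, 251 and 280 CPM after SNT (-0.98, SE 0.24; adjusted p = 0.0176). These groups were separate too, by a narrow margin between sham 4 and SNT 1. Dctn5, in the pointed end of dynactin, fell by 0.59 (SE 0.14; adjusted p = 0.0148) without overlap, and Dctn3 by 0.52 (SE 0.17; adjusted p = 0.0473) with overlap between sham 4 and SNT 1. Dync1h1 itself had a value of -0.33 (SE 0.17; adjusted p = 0.162).

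Kif22 was the largest rise in the rat. Its sham libraries held 17.9, 15.4, 18.7 and 49.2 CPM and its SNT libraries 46.2, 50.5, 52.6 and 61.3 CPM, so that sham 4 lay above SNT 1. The log2 fold change was 1.05 (SE 0.33; adjusted p = 0.041, edgeR) with all 8 libraries, 1.61 without sham 4 and 1.67 without sham 4 and SNT 1. Tuba1c held 19.1, 20.01, 28.3 and 19.7 CPM in sham and 33.4, 29.7, 26.2 and 41.6 CPM after SNT, with sham 3 above SNT 3. Its log2 fold change was 0.59 (SE 0.18; adjusted p = 0.0356), and it was not called without sham 4 and SNT 1. Kif7, a ciliary regulator of hedgehog signalling, rose by 0.49 (SE 0.16; adjusted p = 0.0451), with sham 3 and 4 above SNT 1.

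Among the remaining falls, Kif21a, a kinesin that slows microtubule growth, held 847, 1432, 1186 and 933 CPM in sham and 775, 521, 471 and 677 CPM after SNT (-0.85, SE 0.21; adjusted p = 0.019), without overlap. Kif9 fell by 0.86 (SE 0.25; adjusted p = 0.031) at levels under 6 CPM, and Kif16b, which moves endosomes, fell by 0.35 (SE 0.11; adjusted p = 0.0396). Tuba8 held 4.56, 6.47, 5.20 and 4.43 CPM in sham and 2.02, 0.653, 1.001 and 1.44 CPM after SNT (-2.02, SE 0.31; adjusted p = 0.0106). Tubb1, the beta tubulin of platelets, held 1.16, 3.05, 1.28 and 1.69 CPM in sham and 0.506, 0.817, 0.222 and 0.131 CPM after SNT (-2.07, SE 0.50; adjusted p = 0.0176). Neither overlapped, but Tubb1 rested on 14 to 50 reads per sham library and 2 to 15 per SNT library, and Tuba8 on 55 to 106 and 12 to 32. Sensory neuron markers moved the same way in the rat: 5 of the 6 tested were lower, and the sum of the 11 found was 5403 to 8011 CPM in sham and 3861 to 6843 CPM after SNT. In the mouse 4 of 12 were lower in each strain, the neurofilament genes Nefh, Nefm and Nefl and also Snap25. Nefl alone went from 4574 to 3420 CPM in BALB/c, so the mouse sums lean on neurofilaments. Those genes are at 0 in the rat, so mouse and rat sums do not cover the same genes. The sums of all 12 were 12251 to 14059 CPM in BALB/c sham and 9894 to 11567 CPM after SNI. The B10.D2 sums were 12913 to 14983 and 9989 to 12497 CPM. Of the 10 macrophage markers 1 was higher in the rat, with 4 (Aif1, Cd68, Csf1r and Mrc1) at 0 throughout, and the sum was 1810 CPM in sham 4, 405 to 742 in the other sham libraries and 1574 to 2282 after SNT. Of 4 Schwann cell markers tested 3 were higher (median log2 fold change 0.78). Of 6 T cell markers tested 4 were higher (median 1.09), with none of the 7 found at 0 throughout and sums of 37.3 to 91.0 and 108 to 163 CPM. The part of these markers in the motor and tubulin changes was not tested.

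**Figure D5:**
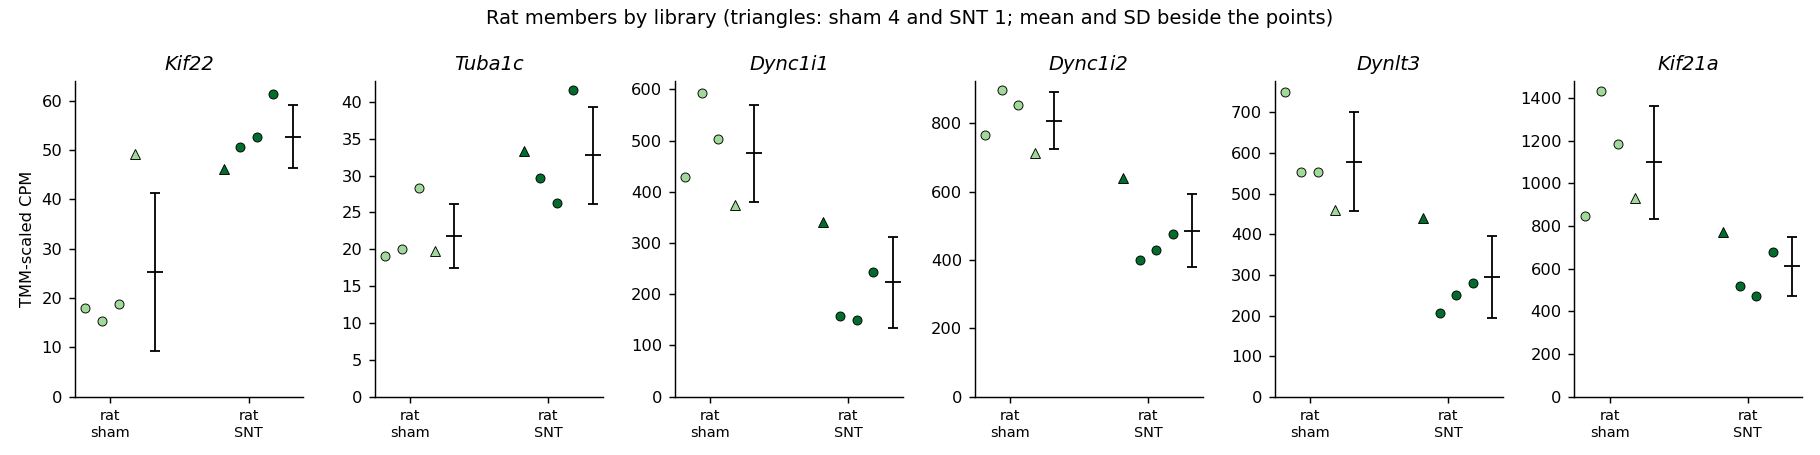
TMM-scaled CPM of Kif22, Tuba1c, Dync1i1, Dync1i2, Dynlt3 and Kif21a in each rat library (n = 4 sham, light green; n = 4 SNT, dark green; 3 animals per library), with group mean and SD; triangles mark sham 4 and SNT 1. For the dynein genes the triangles lie at the facing edges of their groups. For Kif21a this holds for SNT 1 but not for sham 4, as sham 1 lies lower. For Kif22 the sham 4 triangle lies among the SNT libraries.

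The rat count depended on single libraries. It was 5 without SNT 2, 6 without SNT 3, SNT 4, sham 2 or sham 3, and 7 without sham 1, against 18 without sham 4, and only Tuba8, Dctn5 and Dync1i2 were called whichever library was left out. The share of all features called in these fits is not given here, so the counts cannot be read as particular to these genes. Tubb1 lost its call without sham 2 or SNT 3 (-2.63 to -1.66), Dynlt3 without sham 1 or SNT 4 (-1.23 to -0.81) and Kif21a without sham 3, SNT 2 or SNT 3 (-0.98 to -0.67). Tuba1c lost it without sham 1, 2 or 4 or SNT 2 or 4 (0.47 to 0.74), and Kif9 without sham 2 or 3 or SNT 2, 3 or 4 (-1.05 to -0.71). Kif22 (0.90 to 1.61), Kif7 (0.39 to 0.61), Dctn3 (-0.68 to -0.42) and Kif16b (-0.41 to -0.27) kept theirs only without sham 4 or SNT 1. Without sham 4 and SNT 1 together, a pair chosen after the data were seen, 20 of 43 members and 43.9% of 13892 features were called. Of the 13 called with all 8 libraries, 12 were among them, and 8 were gained. The gained genes included the mitotic kinesins Kif11 (1.10), Kif15 (1.42), Kif2c (1.64), Kif23 (1.02) and Kif4a (1.0), which made 6 of 8 mitotic kinesins higher beside 7 of 8 proliferation markers tested. With all 8 libraries those 8 kinesins were all positive with a median of 0.58, and the proliferation sums were 103 to 242 CPM in sham and 179 to 286 CPM after SNT, with 5 of the 13 markers found (Top2a, Cdk1, Birc5, Aurkb and Mcm5) at 0.

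Mouse and rat were compared over the 41 symbols tested in both. Of these, 36 (87.8%) had the same sign in BALB/c and rat and 34 (82.9%) in B10.D2 and rat; over all 8023 symbols tested in both the shares were 71.3% and 69.8%. Kif22, Tuba1c and Dync1i1 were called in the same direction in all 3 injury comparisons, and Dctn3 in BALB/c and rat. Thus 4 of the 41 were called in both BALB/c and rat, beside 633 of the 8023 symbols, 608 of them in the same direction. In both B10.D2 and rat 3 of the 41 were called, beside 329 of 8023, 319 of them in the same direction. The lesion, ganglion level, time, sex and library method differed between the species and cannot be told apart.

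Across the 9 lists of partner genes of the microtubule system, the share called ran from 0.0% to 22.7% in BALB/c and from 0.0% to 11.1% in B10.D2, beside 9.69% and 4.58% of all features. In the rat it ran from 0.0% to 50%, beside 27.4%, in lists of 3 to 19 tested genes. Among stathmins and collapsin response mediators, which bind tubulin and steer growth cones, 2 of 9 rose in BALB/c and 1 of 9 in B10.D2. Stmn4 rose by 1.73 (SE 0.14; adjusted p = 8.52e-08, edgeR), from 6.67 ± 0.763 CPM (n = 6) to 22.0 ± 1.73 (n = 4), and in B10.D2 by 1.27 (SE 0.14; adjusted p = 1.89e-05). Stmn2 rose by 0.29 in BALB/c (SE 0.09; adjusted p = 0.0436). In the rat 1 of 5 tested rose (Stmn1, 0.51, SE 0.12; adjusted p = 0.0168) and 1 fell (Dpysl4, -1.48, SE 0.35; adjusted p = 0.016). Among 27 microtubule-associated proteins 2 fell in BALB/c and 1 fell in B10.D2. Of 19 tested in the rat 3 rose and 5 fell. Map7d2, which helps kinesin-1 onto the microtubule, was lower in all 3, by 0.55 in BALB/c (SE 0.058; adjusted p = 1.86e-06), 0.44 in B10.D2 (SE 0.056; adjusted p = 5.77e-05) and 1.20 in the rat (SE 0.24; adjusted p = 0.0123). Map1b, a scaffold of the axonal cytoskeleton, fell by 0.34 in BALB/c (SE 0.072; adjusted p = 0.00349) and by 0.76 in the rat (SE 0.24; adjusted p = 0.041). The largest falls of the list in the rat were those of Map7d2 and Map7 (-0.95), and the largest rises those of Map7d1 (0.75) and Dclk1 (0.67).

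Tubulin-modifying enzymes gave 2 rises and 3 falls among 22 genes in BALB/c, 1 of each in B10.D2, and 1 rise and 5 falls among 16 tested in the rat. Vash2, which removes the C-terminal tyrosine of alpha tubulin, rose by 0.76 in BALB/c (SE 0.11; adjusted p = 0.000132) and 0.55 in B10.D2 (SE 0.12; adjusted p = 0.00694). Ttll7, which adds glutamate chains to beta tubulin, fell by 0.35 (SE 0.051; adjusted p = 1e-04), 0.22 (SE 0.05; adjusted p = 0.0122) and 1.74 (SE 0.34; adjusted p = 0.0118) in BALB/c, B10.D2 and rat. Hdac6, a tubulin deacetylase, rose by 0.20 in BALB/c and Agbl4, which trims glutamates, fell by 0.36 there and by 1.21 in the rat, where Ttll4 rose by 0.38.

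Partners of the motors themselves were called at 20% (kinesin subunits), 5.56% (cargo adaptors) and 15% (dynein regulators) in BALB/c. Of 10 kinesin light chains and other kinesin subunits, Kifc2 (-0.26) and Klc2 (-0.23) fell in BALB/c, none passed in B10.D2, and of 6 tested in the rat Kifc2 fell (-0.71). Of 18 cargo adaptors only Syt11 passed in BALB/c (-0.15) and none in B10.D2, and of 11 tested in the rat Trak1 rose (0.42) and Madd fell (-0.44). Of 20 dynein regulators and adaptors, Nde1 rose (0.30) and Pafah1b1 (-0.18) and Bicd1 (-0.17) fell in BALB/c, none passed in B10.D2, and of 9 tested in the rat Actr10 (-0.75) and Bicd1 (-0.35) fell. In the gamma-tubulin ring complex Tubgcp4 fell in both mouse strains (-0.22 and -0.20), and in the rat Nedd1 (0.64) and Cdk5rap2 (0.43) rose and Tubgcp5 (-0.35) fell. None of the 8 severing enzymes or 7 folding cofactors passed in either mouse strain, and in the rat only Fign rose (0.83).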

How the data were processed

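Per the labels and the study's methods, mouse RNA was depleted of ribosomal RNA and rat RNA selected by poly-A; the authors aligned the reads with STAR to mm10 or rn6 and assigned them to genes with HTSeq, and the deposited tables hold raw counts per gene. Strand was marked, but the counting's strand setting is not given in the sources used here. Symbols came from the deposited result tables, whose other columns hold the authors' own mean counts, fold changes and p-values and were not used. Of the 30 labelled samples, 28 have a count column; the other 2 are not analysed here.

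Counts were analysed with edgeR 4.0.16 in R 4.3.3: the default expression filter, TMM scaling and the quasi-likelihood F test, with sex, strain, condition and their interaction in the mouse and condition in the rat. Benjamini-Hochberg adjustment ran over all features, and genes under an adjusted p of 0.05 are called. No library pair had identical values. Fold changes are log2; CPM is the count scaled by the TMM-adjusted library total, and the SE is the fold change over the square root of F. Levels per kb used exon lengths of GENCODE M21, and shared sequence was counted in 100-base stretches of its transcripts. The fits were tested on simulated data. Alternatives were DESeq2 1.42.0, other size factors and filters, other models and leaving out each library. Rat p-values describe pools of animals. Replicate numbers of the rat follow accession order. Each rat sham library shares a number in its title with an SNT library, and the labels do not say what that number stands for. Deviations of libraries that share it correlated between -0.238 and 0.0529, and those of the other combinations between -0.477 and 0.426. With 4 libraries per group these correlations cannot decide whether the libraries are paired. The main fit does not pair them.

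The members and lists were chosen with earlier results of these data known. By the rule for named genes, the text gives every called member of each injury comparison, the highest member of each class in sham per kb, the 5 largest called strain differences, and at most 2 rises and 2 falls per partner list and injury comparison; members that a sentence compares with these were chosen after their values were seen. The levels of the Schwann cell marker list are not reported here.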

Additional observations from a re-analysis of the deposited data

Results flagged for a closer look

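Of 122 pairs of a named gene and a group, 5 had a library far from the rest of its group by Dixon's gap criterion, which chance meets in about 1 of 20 groups. Kif22 was 49.2 CPM in rat sham 4, against 15.4 to 18.7 in the other 3 sham libraries. Tuba1c was 28.3 CPM in rat sham 3, against 19.1 to 20.01 in the others. In the mouse, Kif22 was 9.50 CPM in BALB/c SNI 49 (others 6.33 to 6.82), Tuba1c was 11.03 CPM in B10.D2 sham 88 (others 8.06 to 8.77) and Dynlt3 was 356 CPM in B10.D2 sham 67 (others 415 to 426).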

How the results depend on the processing

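The number of members called was recomputed under every alternative. In the mouse no alternative moved it by over 1.5 times: in BALB/c it was 11 with the strain fitted alone and 21 with DESeq2, beside 16, and in B10.D2 it was 5 under each setting that kept all libraries. In the rat it was 13 in the main fit and 15 with DESeq2. It moved to 7 with a replicate block on the number shared in the titles, a pairing that neither the labels nor the correlations decide. Without sham 4 and SNT 1 together, an alternative chosen after seeing the data, it moved to 20. Leaving out 1 rat library gave 5 to 18. The share of all features called is given only for the main fits and the fit without sham 4 and SNT 1. The other counts therefore cannot be read as particular to these genes. Of 1559 values recomputed for single genes, 0 changed direction, 120 lost and 3 gained a call. These values do not cover every member, as 8 members gained a call in the rat fit without sham 4 and SNT 1. All 119 recomputed median log2 fold changes were graded as unchanged. Depth limits genes of few reads, such as Kif2c (18 to 95 reads per mouse library), Dynlt1a (8 to 70) and, in the rat, Tubb1 (2 to 50) and Tuba8 (12 to 106), and the cause of the moves in the rat was not tested.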
